A study of Bos taurus with 28 samples.

Results

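TYMS (ENSBTAG00000007003), HMGB2 (ENSBTAG00000015101) and RCC2 (ENSBTAG00000008579) are 3 genes linked to cell proliferation, taken from 24596 gene IDs counted in the endometrium of heifers. TYMS and HMGB2 were picked for being higher after insemination with semen of high fertility bulls than without insemination, and RCC2 for being lower after semen of high than of low fertility bulls. Those differences are therefore described here without a test, as are those of TYMS and HMGB2 between low fertility semen and no insemination. Each of the 3 genes passed the filter on low counts in every comparison.

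The samples were post-mortem biopsies of the uterus of 28 heifers that had not calved before, with ovulation brought on by the same hormonal synchronization in all of them. Frozen-thawed semen of High Fertility bulls was given to 10 heifers (the HF treatment) and to another 10 that of Low Fertility bulls (LF), and 8 were not inseminated (CTRL). Each semen treatment used 5 bulls with 2 heifers a bull, and the heifers were handled in 2 study replicates. Tissue was taken 12 h after insemination from the lining between the caruncles and was dissected from the muscle layer beneath it. The control group received no insemination at all, so semen and the act of insemination cannot be told apart in a comparison with CTRL. The labels give the breed as Holstein-Freisan, while the animal list of the study gives crosses of beef breeds, which were unevenly spread over the treatments (for example 4 Limousin cross heifers of 8 in CTRL and 4 of 10 in HF, with Charolais crosses numbering 1 in CTRL, 5 in LF and 4 in HF). The sources used here do not state the age of the heifers.

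As background, TYMS encodes thymidylate synthase, the enzyme that makes the thymidine nucleotide DNA synthesis needs, and its transcript is most abundant in cells entering S phase. HMGB2 encodes a chromatin protein that bends DNA, is abundant in dividing cells and can act as an alarm signal outside the cell. RCC2 encodes a protein of the mitotic centromere and spindle midzone that also acts on small GTPases in cell adhesion and movement. The endometrium grows and regresses with each oestrous cycle, and the days around oestrus are a period of epithelial and stromal proliferation under oestradiol.

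The libraries held between 14872812 and 25633259 counts, and the members between 621 and 3532 counts each, so that counting error was small beside the spread between heifers. Of 118 pairs of heifers within a treatment, the most alike still differed by a chi-square of 18.4 per degree of freedom, and each heifer was counted as 1 sample. The biopsies held smooth muscle transcripts in uneven amounts. All 3 of the smooth muscle markers that could be named, out of 8 listed (ACTA2, MYLK and SYNPO2), were detected in every treatment, and their mean ranged from 7.07 to 10.3 log2 CPM (counts per 1000000 counts of a library) in CTRL, from 5.89 to 9.62 in LF and from 6.21 to 9.19 in HF. The epithelial marker KRT8 and the stromal marker VIM had medians of 106 and 1944 CPM in CTRL, 162 and 2287 CPM in LF, and 109 and 2617 CPM in HF. None of the listed markers of endothelium, leukocytes, neutrophils or red blood cells could be matched to an ID, so these cell types were not checked here.

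TYMS was lowest in CTRL heifers and highest in HF heifers. In CTRL its level, in CPM normalized with trimmed means, ran from 47.5 over a median of 53.03 to 77.03 (58.4 ± 10.9, SD, n = 8). In LF it ran from 47.9 over a median of 75.7 to 103 CPM (76.9 ± 17.2, SD, n = 10). In HF it ran from 66.4 over a median of 81.4 to 111 CPM (83.3 ± 12.7, SD, n = 10). Each of the 10 HF values exceeded the CTRL median and 7 exceeded every CTRL heifer, and the remaining 3 fell within the CTRL range. Such a split from the CTRL median was met by 4.37% of all genes tested, and since TYMS was picked on this difference nothing is read from the count. In LF, 9 of 10 heifers lay above the CTRL median and 5 above every CTRL heifer. The heifer with the lowest LF value, LF10, was at the bottom of the CTRL range.

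On the log2 scale TYMS differed from CTRL by 0.51 (SE 0.11) in HF, a ratio of 1.43, and by 0.40 (SE 0.14) in LF, a ratio of 1.32. Both differences rest on the same 8 CTRL heifers. HF and LF could be compared by a test, since TYMS was not picked on that contrast, although the HF heifers are shared with the contrast that was used. The difference of 0.11 (SE 0.12) did not pass it (edgeR quasi-likelihood test, Benjamini-Hochberg adjusted p = 0.905), with a 95% interval of the HF to LF ratio from 0.912 to 1.27. In the order CTRL, LF, HF, the upper neighbours thus did not differ beyond their spread. In bulk tissue, a change in the number of cells that carry a transcript and a change in the amount of it per cell cannot be told apart.

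HMGB2 followed the same order of treatments, with the lowest levels in CTRL. Its CTRL values ran from 35.7 over a median of 37.3 to 58.3 CPM (43.4 ± 9.84, SD, n = 8). The CTRL heifers formed a lower cluster of 5 between 35.7 and 37.3 CPM and 3 heifers at 50.9, 55.9 and 58.3 CPM. In LF the values ran from 38.7 over a median of 55.9 to 91.7 CPM (60.7 ± 18.1, SD, n = 10). In HF they ran from 52.1 over a median of 60.7 to 84.8 CPM (63.4 ± 9.93, SD, n = 10). The coefficient of variation of HMGB2 was 29.8% in LF and 15.6% in HF. The 10 HF and the 10 LF values all exceeded the CTRL median, but only 7 and 3 of them, respectively, lay above every CTRL heifer. In 1.08% of genes every LF heifer exceeded that median, and again the count is a description.

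The log2 difference of HMGB2 from CTRL was 0.55 (SE 0.13) in HF and 0.48 (SE 0.17) in LF, ratios of 1.46 and 1.40 against the same CTRL heifers. Between HF and LF it was 0.06 (SE 0.14), which did not pass the test (edgeR, adjusted p = 0.973), and the 95% interval of the ratio ran from 0.858 to 1.26. A single CTRL heifer, CTRL2, held the highest TYMS and the highest HMGB2 of its group, while CTRL values of RCC2 peaked in CTRL8.

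RCC2 had its lowest mean and its smallest spread in HF. The CTRL values ran from 83.4 over a median of 124 to 151 CPM (120 ± 27.0, SD, n = 8). The LF values ran from 83.9 over a median of 115 to 137 CPM (113 ± 16.2, SD, n = 10). The HF values ran from 78.4 over a median of 95.1 to 101 CPM (91.9 ± 7.92, SD, n = 10). All HF heifers lay below both the CTRL median and the LF median, with 2 of them below every CTRL heifer and 2 below every LF heifer. Of all genes, 3.61% had all HF heifers below the CTRL median and 1.45% had them below the LF median. RCC2 was picked for being lower in HF than in LF, and both counts use the same HF heifers, so nothing is read from them. The coefficient of variation was 22.5% in CTRL, 14.3% in LF and 8.61% in HF, a difference in spread that was not tested. It was also smallest in HF for TYMS (18.6% in CTRL, 22.3% in LF and 15.3% in HF) and for HMGB2 (22.6%, 29.8% and 15.6%). A pair of CTRL heifers, at 83.4 and 84.2 CPM, lay as low as the lower HF heifers.

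**Figure D1:**
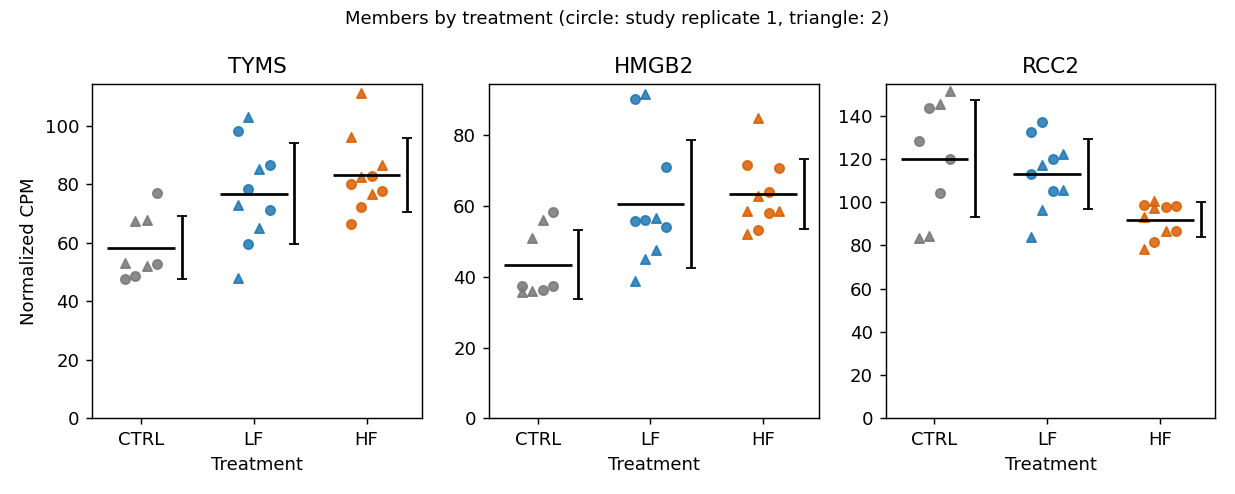
Normalized CPM of TYMS, HMGB2 and RCC2 (vertical axes from 0) in each heifer of the CTRL (n = 8), LF (n = 10) and HF (n = 10) treatments, with circles for study replicate 1 and triangles for study replicate 2, a line at the mean and a bar of 1 SD either side. HF values of TYMS start at 66.4 CPM and those of HMGB2 at 52.1 CPM, above the CTRL medians of 53.03 and 37.3 CPM, while the HF values of RCC2 end at 101 CPM, below the CTRL median of 124 CPM.

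The log2 difference of RCC2 between HF and LF, on which it was picked, was -0.31 (SE 0.086), a ratio of 0.807. It was not picked against CTRL, though the HF heifers are shared with the contrast used, and HF differed from CTRL by -0.39 (SE 0.11), a ratio of 0.765 with a 95% interval from 0.655 to 0.894. That difference did not pass the test over all genes (edgeR, adjusted p = 0.164), nor did it under DESeq2 (adjusted p = 0.0565). The LF to CTRL difference was -0.08 (SE 0.13), with a ratio of 0.943 and an interval from 0.790 to 1.13 (edgeR, adjusted p = 0.941). LF and CTRL thus did not differ beyond their spread. With the breed of the heifer as a covariate, the HF to CTRL difference shrank to -0.20.

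No gene passed an adjusted p of 0.05 by edgeR in any of the 3 comparisons, so 0% of genes were called in each. By DESeq2, 328 genes (1.71%) passed between HF and CTRL, 2 (0.0104%) between LF and CTRL and 27 (0.14%) between HF and LF. At an unadjusted p under 0.05 by edgeR, HF exceeded CTRL in 1155 genes (7.76%) and lay under it in 1231 (8.27%). The same counts were 437 (2.94%) and 402 (2.71%) for LF against CTRL, and 491 (3.32%) and 680 (4.6%) for HF against LF. The 3 members varied less between heifers of a treatment than most genes, with a biological coefficient of variation of 20.2% for TYMS, 23.4% for HMGB2 and 17.8% for RCC2 beside a median of 30.3% over 15163 genes. The members were picked on differences between treatments and the genes were not matched on level, so nothing is read from this.

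Within each study replicate the differences from CTRL kept their direction. For TYMS in HF the log2 difference was 0.42 (SE 0.17) in study replicate 1 and 0.59 (SE 0.15) in study replicate 2, and for HMGB2 it was 0.59 (SE 0.18) and 0.51 (SE 0.20). In LF, TYMS differed from CTRL by 0.48 (SE 0.20) and 0.34 (SE 0.24), and HMGB2 by 0.63 (SE 0.22) and 0.35 (SE 0.29). RCC2 in HF differed from CTRL by -0.42 (SE 0.13) and -0.34 (SE 0.20), and from LF by -0.39 (SE 0.11) and -0.21 (SE 0.14). The small differences of TYMS and HMGB2 between HF and LF changed sign, from -0.06 (SE 0.14) to 0.27 (SE 0.20) for TYMS and from -0.05 (SE 0.17) to 0.17 (SE 0.23) for HMGB2. The interaction of treatment and study replicate did not pass the test for any member in any pair of treatments (edgeR, adjusted p = 0.9998 or more in each). By edgeR 0% of all genes passed that test, and 1.67%, 1.76% and 2.48% had an unadjusted p under 0.05 for HF against CTRL, LF against CTRL and HF against LF. Neither did the study replicates themselves differ in a member, with log2 differences of replicate 2 from replicate 1 of 0.09 (SE 0.10) for TYMS, -0.06 (SE 0.12) for HMGB2 and -0.11 (SE 0.088) for RCC2 (edgeR, adjusted p = 0.999 each, with 0.0132% of all genes called and 3.35% at an unadjusted p under 0.05).

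**Figure D2:**
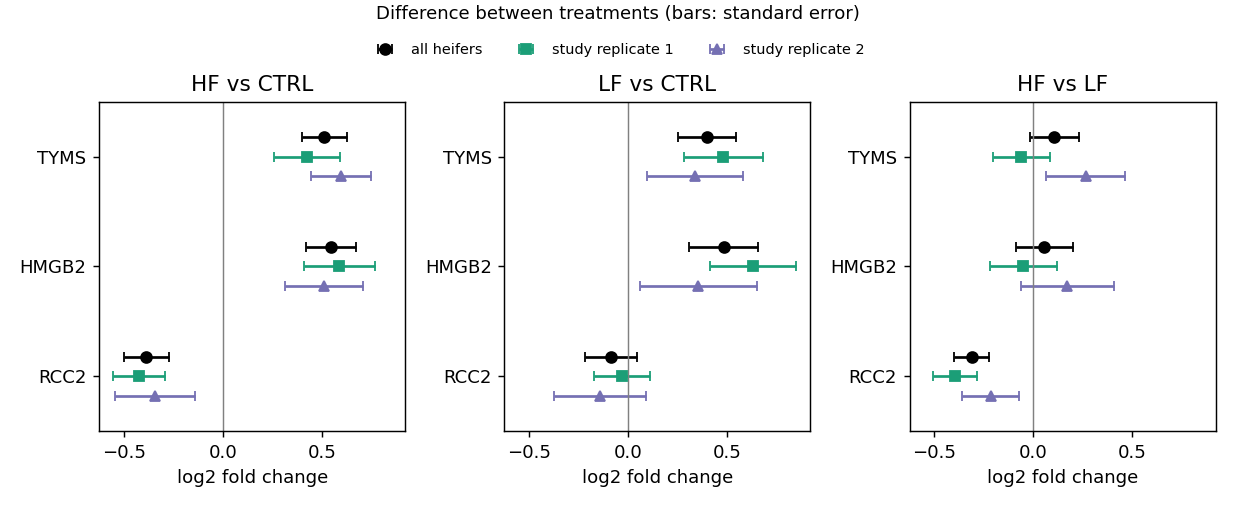
Log2 fold change of TYMS, HMGB2 and RCC2 (horizontal axis, edgeR, bar of 1 SE either side) for the 3 pairs of treatments, over all heifers (black circles) and within study replicate 1 (green squares) and study replicate 2 (purple triangles). TYMS and HMGB2 sit right of 0 in both comparisons with CTRL. RCC2 sits left of 0 in all 3 pairs of treatments, at -0.08 over all heifers between LF and CTRL. The differences of TYMS and HMGB2 between HF and LF lie on either side of 0.

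Each bull's semen went to 2 heifers, 1 in each study replicate, which allowed a check of whether heifers of the same bull resembled each other. The mean difference between heifers of the same bull was 0.38 log2 units for TYMS, 0.30 for HMGB2 and 0.22 for RCC2. Over all 14400 ways of pairing the heifers across study replicates within a treatment, the means were 0.32, 0.36 and 0.20. Heifers of the same bull were thus not detectably closer than others in TYMS, HMGB2 or RCC2 (exact permutation test over 10 bulls, one-sided, p = 0.917, 0.213 and 0.776, adjusted over the 3 genes p = 0.917, 0.640 and 0.917). With the counts of each bull summed, HF differed from LF by 0.11 (SE 0.094) for TYMS, 0.06 (SE 0.15) for HMGB2 and -0.30 (SE 0.076) for RCC2.

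Smooth muscle transcripts averaged higher in CTRL than in either semen treatment. The mean of ACTA2, MYLK and SYNPO2 was 8.79 ± 1.49 log2 CPM in CTRL (SD, n = 8), 7.51 ± 1.22 in LF (SD, n = 10) and 7.70 ± 1.13 in HF (SD, n = 10). MYLK, the kinase of the myosin light chain, was at a median of 503 CPM in CTRL, 170 CPM in LF and 151 CPM in HF. Its log2 difference from CTRL was -1.39 (SE 0.57) in LF and -1.30 (SE 0.55) in HF, neither past the test (edgeR, adjusted p = 0.874 and 0.260). When the fit took in the mean of these muscle genes, the LF to CTRL difference of TYMS was 0.24 in place of 0.40, and that of HMGB2 was 0.28 in place of 0.48. The HF to CTRL differences of TYMS and HMGB2 were then 0.43 and 0.48 in place of 0.51 and 0.55, while that of RCC2 was -0.45. The part of muscle content in these differences was not tested further.

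How the members varied between heifers of the same treatment was not used to pick them, and was examined after each treatment's mean was subtracted from the log2 CPM. TYMS and HMGB2 rose and fell together across the 28 heifers, with Pearson's r of 0.62 and Spearman's rho of 0.54 (100000 permutations within treatments, p = 0.00179 and 0.00663, adjusted over 3 pairs of members p = 0.00537 and 0.0199). Without the 2 heifers farthest from the median of TYMS, r was 0.52. Over all 28 heifers with the smooth muscle mean also taken out, r was 0.51 (permutation test, adjusted p = 0.0159). The relation was seen inside each treatment, at 0.61 in CTRL, 0.64 in LF and 0.55 in HF, and within study replicates 1 and 2 at 0.57 and 0.70. HF9 and LF7 held the highest TYMS of their treatments and also the highest HMGB2.

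RCC2 leaned the other way, without passing the test. Its r was -0.36 with TYMS and -0.31 with HMGB2 (permutation test, p = 0.0793 and 0.147, adjusted p = 0.119 and 0.147), and rho was -0.42 and -0.28 (permutation test, p = 0.0421 and 0.169, adjusted p = 0.0631 and 0.169). Without the 2 heifers farthest from the median on the other member, r was -0.36 with TYMS and -0.16 with HMGB2. The r of TYMS and RCC2 was -0.30 in CTRL, -0.38 in LF and -0.60 in HF, and -0.55 and -0.24 in study replicates 1 and 2. For HMGB2 and RCC2 it was -0.14 in CTRL, -0.43 in LF and -0.58 in HF, and -0.50 and -0.31 in the study replicates. HF9, with the highest TYMS and HMGB2 of the HF heifers, had the lowest RCC2 of all 28, and LF7, highest of LF in TYMS and HMGB2, had the lowest RCC2 of LF. Once the smooth muscle mean was also taken out, both relations passed the test, at r of -0.56 (permutation test, adjusted p = 0.00831) with TYMS and -0.48 (adjusted p = 0.0170) with HMGB2.

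**Figure D3:**
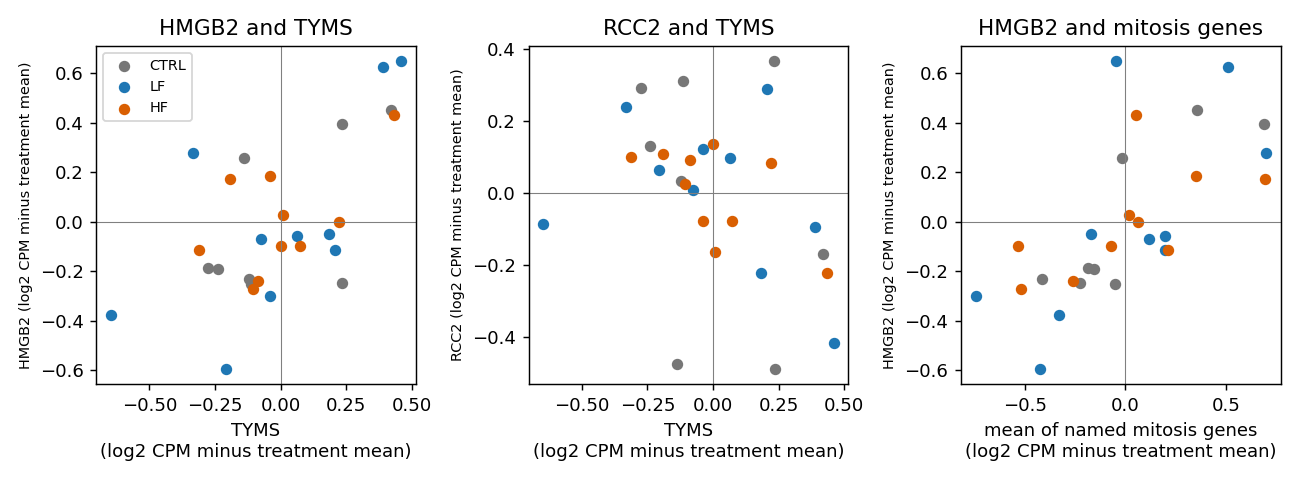
Log2 CPM of each of 28 heifers minus the mean of its treatment (grey CTRL, blue LF, orange HF) for HMGB2 against TYMS, RCC2 against TYMS, and HMGB2 against the mean of 21 named mitosis genes. The points rise together for HMGB2 and TYMS (r 0.62) and for HMGB2 and the mitosis genes (r 0.68), and tilt downward with wide scatter for RCC2 and TYMS (r -0.36).

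Other genes of the members' pathways could be followed only where an ID carried a name. Of the enzymes of thymidylate and nucleotide synthesis, 2 of 19 listed were named. CTPS1, which makes CTP, differed between LF and CTRL by -0.71 (SE 0.29) that did not pass the test (edgeR, adjusted p = 0.874), with medians of 65.4 CPM in CTRL, 37.6 in LF and 45.9 in HF. GGH, a hydrolase that removes the glutamate tail of folates, differed from CTRL by 0.43 (SE 0.26) in LF and 0.30 (SE 0.22) in HF. No listed relative or partner of HMGB2 (14 listed) or RCC2 (10 listed) carried a name.

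Of the 22 listed genes of DNA replication, 4 were named, and each lay above CTRL in both semen treatments without passing the test in either. MCM3 and MCM7, subunits of the replicative helicase, differed from CTRL by 0.39 (SE 0.20) and 0.26 (SE 0.13) in LF, and by 0.16 (SE 0.18) and 0.13 (SE 0.12) in HF. GINS2, part of the same helicase complex, differed by 0.59 (SE 0.30) in LF and 0.30 (SE 0.23) in HF. RFC4, a subunit of the clamp loader, differed by 0.35 (SE 0.16) in LF and 0.30 (SE 0.13) in HF (edgeR, adjusted p = 0.874 and 0.265). The median of the 4 was 0.37 in LF and 0.23 in HF, beside 0.01 and -0.02 over all genes tested.

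The only named member of 23 listed mitosis genes was CDCA3, which helps to trigger entry into mitosis. It ran from 2.74 to 9.71 CPM in CTRL, from 3.81 to 17.03 in LF and from 4.30 to 15.7 in HF, so the treatments overlapped widely. Its log2 difference from CTRL was 0.73 (SE 0.29) in HF and 0.70 (SE 0.33) in LF (edgeR, adjusted p = 0.235 and 0.874). CCND2, a D-type cyclin of G1 and the 1 named gene of 13 listed for G1 control, differed from CTRL by -0.67 (SE 0.24) in HF and -0.70 (SE 0.29) in LF (edgeR, adjusted p = 0.206 and 0.874). FOS, an immediate early gene and the 1 named of 7 genes listed for the oestrogen and growth response, differed from CTRL by -0.61 (SE 0.38) in HF and -0.64 (SE 0.37) in LF.

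A wider look took in every gene of DNA replication (17), homologous recombination (6) and mitosis (21) that carried a name, lists put together after the files were at hand. Most names come from a study list ordered by the p-value of LF against CTRL, so these genes lean towards differing between LF and CTRL, and their counts are no independent evidence. Between HF and CTRL, 43 of 44 had a log2 difference above 0, where 46.4% of all genes had, and 16 (36.4%) were higher at an unadjusted p under 0.05, beside 272 of 1451 other named genes (18.7%) and 7.76% of all genes. Between LF and CTRL, 42 of 43 tested were above 0, where 51.8% of all genes were, and 13 (30.2%) were higher at an unadjusted p under 0.05, beside 324 of 1451 other named genes (22.3%) and 2.94% of all genes. The exception in both was HAUS2, a spindle protein, at -0.06 (SE 0.086) in HF and -0.18 (SE 0.13) in LF. Of the other named genes, 691 of 1451 were above 0 in HF and 689 of 1451 in LF. None of the 44 passed an adjusted p of 0.05 by edgeR, and 1 did by DESeq2, NSL1, a kinetochore protein at a log2 difference of 0.38 (SE 0.11) between HF and CTRL.

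The median log2 difference of these cell cycle genes was 0.40 in HF and 0.46 in LF, against the same CTRL heifers. The genes of replication had medians of 0.30 in HF and 0.41 in LF, those of recombination 0.32 and 0.41, and those of mitosis 0.47 and 0.54. RNASEH2A, which removes ribonucleotides from DNA, was at a median of 40.6 CPM in CTRL, 41.4 in LF and 54.6 in HF. Its log2 difference from CTRL was 0.49 (SE 0.15) in HF and 0.41 (SE 0.20) in LF, and 0.08 (SE 0.16) between HF and LF. EXO1, an exonuclease of DNA repair, was at 0.961, 1.54 and 2.02 CPM. Between HF and LF, 10 of the 44 (22.7%) lay above 0, where 43.2% of all genes and 735 of 1448 other named genes did. Their median was -0.06 beside -0.03 for all genes, and none of the 44 passed an unadjusted p of 0.05 in either direction. RCC2, at -0.39 against CTRL in HF, lay below each of the 44 genes in that comparison. CCND2, the named G1 cyclin outside these lists, lay lower still, at -0.67 (SE 0.24).

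**Figure D4:**
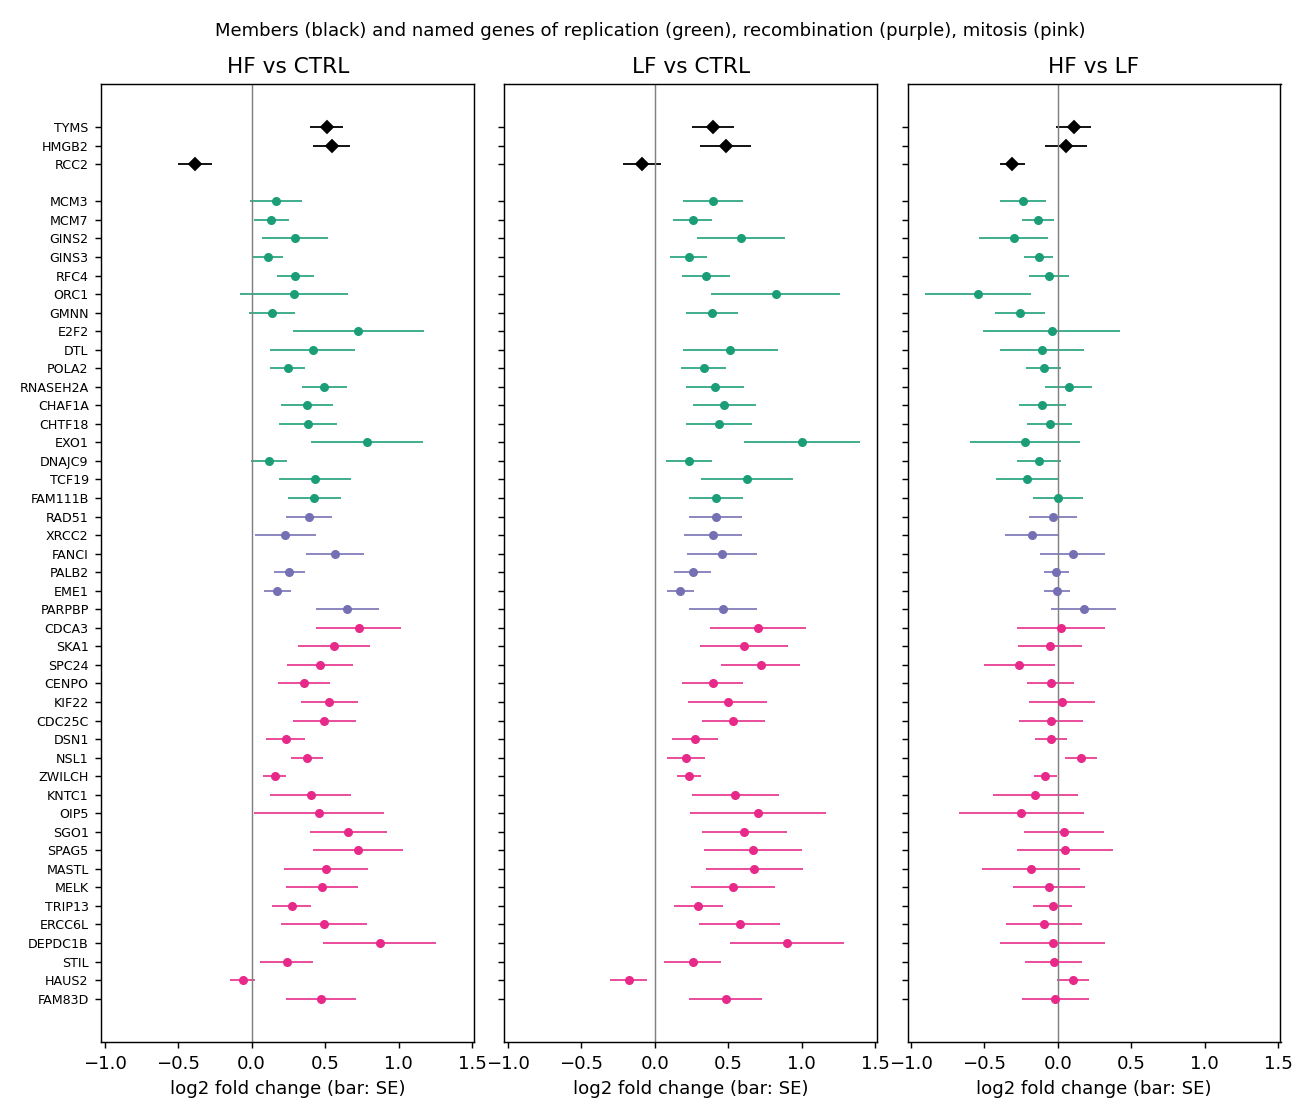
Log2 fold change (horizontal axis, edgeR, bar of 1 SE either side) of TYMS, HMGB2 and RCC2 (black diamonds) and of 44 named genes of DNA replication (green), homologous recombination (purple) and mitosis (pink) for the 3 pairs of treatments. Against CTRL, all named genes but HAUS2 lie right of 0 in HF and in LF, where 43 of the 44 were tested. RCC2 lies left of 0. Between HF and LF, 10 of the 44 lie right of 0.

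Between heifers of the same treatment, HMGB2 varied together with CDCA3. Its r was 0.81 and its rho 0.82 over 28 heifers (100000 permutations within treatments, p = 1e-05, the smallest they can give, adjusted over 18 relations of members with lists p = 0.00018), and r was 0.79 without the 2 farthest heifers. The r was 0.79 in CTRL, 0.86 in LF and 0.78 in HF, and 0.78 and 0.85 in the study replicates. With the 4 named genes of the replication list HMGB2 had an r of 0.50 that did not pass (permutation test, p = 0.0190, adjusted p = 0.0684). The rho of HMGB2 with these genes was 0.55 and passed (permutation test, p = 0.00609, adjusted p = 0.0432). TYMS had an r of 0.46 with the replication genes (p = 0.0309 by permutation, adjusted p = 0.0794) and 0.35 with CDCA3 (p = 0.0926 by permutation, adjusted p = 0.151). RCC2 had 0.24 and -0.0044 (permutation test, adjusted p = 0.437 and 0.983).

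As a description over the wider lists, HMGB2 had an r of 0.55 with the mean of 17 replication genes, 0.69 with that of 6 recombination genes and 0.68 with that of 21 mitosis genes. The last was 0.85 in CTRL, 0.65 in LF and 0.61 in HF. For TYMS the same 3 values were 0.31, 0.35 and 0.22, and within treatments they parted, since with the mitosis mean TYMS had an r of 0.63 in CTRL, 0.22 in LF and -0.15 in HF. For RCC2 they were 0.31, 0.07 and 0.14. Once the smooth muscle mean was taken out, the 3 values were 0.14, 0.18 and 0.07 for TYMS and 0.45, 0.61 and 0.63 for HMGB2. Taken gene by gene, HMGB2 had an r above 0 with 40 of the 44 cell cycle genes and a median of 0.49, TYMS with 36 and a median of 0.24, and RCC2 with 33 and a median of 0.11, where the medians over all genes were -0.01, 0.01 and 0.03 and the shares of all genes with an r above 0 were 48.6%, 50.8% and 53.7%. Whether TYMS and HMGB2 differ in these correlations was not tested.

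**Figure D5:**
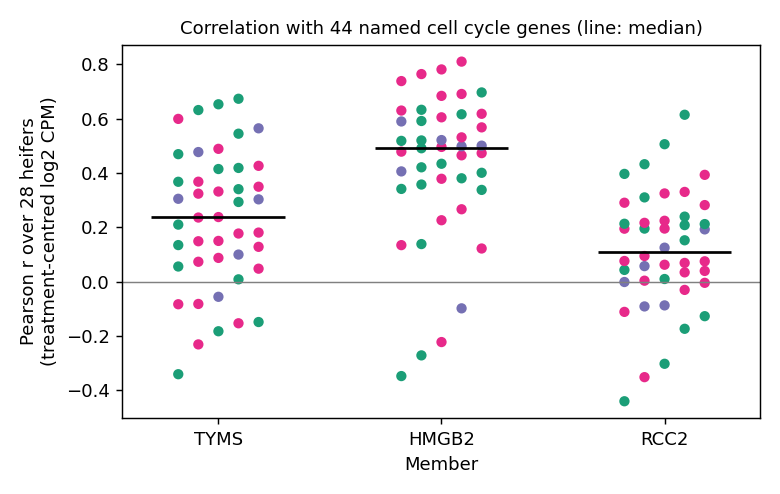
Pearson's r (vertical axis) of TYMS, HMGB2 and RCC2 with each of 44 named cell cycle genes over 28 heifers, from log2 CPM minus the treatment mean, with replication genes in green, recombination genes in purple, mitosis genes in pink and a line at the median. HMGB2 sits highest with a median of 0.49, TYMS follows with 0.24 and RCC2 with 0.11.

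Among all 15162 other genes, the 5 with a pattern most like TYMS between heifers were ENSBTAG00000009174, CCL25, ENSBTAG00000021992, ENSBTAG00000011242 and ENSBTAG00000015015, with r from 0.77 to 0.78. CCL25, a chemokine that draws T cells, was the only named gene among them at 0.78. For HMGB2 the 5 were ENSBTAG00000023938, ENSBTAG00000012184, ENSBTAG00000005010, CDCA3 and ENSBTAG00000005269, with r from 0.80 to 0.86. The next named genes for HMGB2, given here after their values were seen, were KIF22, a mitotic kinesin, at 0.78, SPC24, a kinetochore subunit, at 0.76 and SKA1, which couples kinetochores to microtubules, at 0.74. For RCC2 the 5 were ENSBTAG00000010322, ENSBTAG00000003547, ENSBTAG00000011865, ENSBTAG00000007759 and ENSBTAG00000022762, with r from 0.84 to 0.89. The named gene most like RCC2 was DUSP5, a phosphatase of ERK, in place 19 at 0.81. No named cell cycle gene stood among the 5 for TYMS or RCC2.

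With markers of other cell types, no r of a member passed the test after adjustment. Among the rho values, only that of RCC2 with KRT8 passed. TYMS and HMGB2 had an r of -0.49 and -0.45 with the smooth muscle mean (permutation test, p = 0.0123 and 0.0228, adjusted p = 0.0684 for both), with rho of -0.41 and -0.48. HMGB2 had an r of 0.50 with VIM (permutation test, p = 0.0192, adjusted p = 0.0684) and TYMS one of 0.38 (adjusted p = 0.146). RCC2 had an r of 0.54 with KRT8 (permutation test, p = 0.0132, adjusted p = 0.0684) that fell to 0.35 without the 2 farthest heifers and was 0.03 in study replicate 1 and 0.69 in study replicate 2. The rho of RCC2 with KRT8 was 0.54 (permutation test, p = 0.0072, adjusted p = 0.0432). Its r with smooth muscle was -0.25 (permutation test, adjusted p = 0.397). KRT8 itself differed by -0.52 (SE 0.15) between HF and LF, 0.58 (SE 0.21) between LF and CTRL and 0.08 (SE 0.22) between HF and CTRL. None of these passed the test (edgeR, adjusted p = 0.450, 0.874 and 0.893). The part of epithelial content in the differences of RCC2 was not tested.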

How the data were processed

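PolyA RNA of uterine biopsies was sequenced from stranded libraries. The authors trimmed and aligned the reads on the ARS-UCD1.2 build and deposited counts of uniquely mapped reads per Ensembl gene, in 1 file for each of 28 heifers. STAR 2.6.1b and Subread 1.6.3 are the tools in the submitters' processing notes. Whether counting used strand is not stated in those sources, and in RefSeq's annotation of assembly ARS-UCD2.0 the end of TYMS overlaps ENOSF1, so reads there may be shared. HMGB2 belongs to a family of related genes, and reads that fit several places in the genome were left out by the authors. Whether this lowered the counts of HMGB2 was not checked.

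From the counts, edgeR 4.0.16 (R 4.3.3) was run per pair of treatments with TMM scaling, a minimum count of 10 in its expression filter and quasi-likelihood tests, adjusted by Benjamini-Hochberg over all genes at 0.05. DESeq2 1.42.0 was the alternative. CPM used TMM factors over 28 heifers, and log2 CPM a prior count of 2. Intervals are at 95%, and all p-values measure the spread between heifers. Heifers of the same bull counted as separate samples, so the tests and intervals of HF against LF do not measure the spread between bulls. Treatments came from the labels, and study replicate, breed and bull from the animal list of the study. Names were at hand for 1522 of 24596 IDs. Of 15 cell cycle genes to be named in any case, only MCM3 and MCM7 had a name. Also named were up to 3 genes per list and comparison at an unadjusted p under 0.05 and the 5 genes most correlated with each member. Members and lists were chosen with earlier results of these data known. Scripts were tested on simulated data. No sequences are shown, and promoters were not analysed here.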

Additional observations from a re-analysis of the deposited data

How the results depend on the processing

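In the contrasts on which a member was not picked, 111 of 112 alternative values of its log2 difference kept their direction and their side of the threshold, and the exception was RCC2 between LF and CTRL, at 0.020 with breed as a covariate. In the contrasts given without a test, all 137 alternative values kept their direction. Among them, TYMS and HMGB2 between HF and CTRL were outside the genes called by edgeR but among those called by DESeq2 and by edgeR without CTRL2, which is a description since both were picked there. RCC2 between HF and LF, where it was picked, was among the genes called by neither edgeR nor DESeq2. Between HF and CTRL the adjusted p of RCC2 ran from 0.0565 (DESeq2) to 0.761. The number of genes called was 0 by edgeR and 328, 2 and 27 by DESeq2 for HF against CTRL, LF against CTRL and HF against LF. Leaving out 1 heifer gave 0 to 91 genes between HF and CTRL, with 91 without CTRL2 and 3 without CTRL6, and 0 to 0 in the other pairs. Study replicates differed in 2 genes, in 6 by DESeq2 and in 5 with breed as a covariate. With the replicate number as a block, 0 genes were called in each pair of treatments. Same-numbered samples deviated together in 5 of 8, 4 of 8 and 5 of 10 pairs, so the numbers were not read as pairs. Without centring on treatments, which lets the contrasts used for choosing in, RCC2 had an r of -0.52 with TYMS and -0.46 with HMGB2, and with smooth muscle taken out these were -0.56 and -0.48, all 4 past the threshold. Of 60 alternative correlations of members with each other and with lists, 42 kept direction and side, 4 changed sign and 14 came past the threshold, 12 of the 14 without centring. These 12 include TYMS and HMGB2 with VIM (0.59 and 0.66) and with smooth muscle (-0.58 and -0.56). The r of HMGB2 with the 17 replication genes was 0.45 with smooth muscle taken out, beside 0.55. Without centring, the r of TYMS and HMGB2 with KRT8 turned to 0.034 and 0.15, and that of RCC2 turned to -0.26 with VIM, -0.19 with the named recombination genes and -0.059 with the named mitosis genes. With smooth muscle taken out, RCC2 turned to -0.079 with VIM and -0.044 with the recombination genes. The cause of these shifts was not tested. Only 1522 IDs carried a name, so most pathway genes were not followed.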

Other observations

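Apart from the cell cycle genes, the named genes most like TYMS between heifers of a treatment were CCL25 (r 0.78), ZNF584, a zinc finger gene (0.76), H1FX, a linker histone (0.76), and MYL6B, a myosin light chain (0.75). For RCC2, after DUSP5, they were LRRC3 (0.77), PDXK, the kinase that activates vitamin B6 (0.75), and PCSK5, a proprotein convertase (0.75). These were picked for their r, so no test is given.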
